A study of Mus musculus with 9 samples.

Results

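The genes described here are the dual oxidases Duox1 and Duox2, their maturation factors Duoxa1 and Duoxa2, the NADPH oxidases Nox4 and Cybb, and Cyba, the partner subunit of the NADPH oxidases. They were taken by gene symbol, which found all 7 among the 23018 genes of the count table. RNA had been sequenced from lymphatic endothelial cells of 3 tissues, meninges, diaphragm and skin, with 3 libraries each and 9 in all. The mice were male, wild type and untreated, of strain C57BL/6J and 10 weeks old. All libraries share genotype, sex, age and gate, which kept CD31-positive, podoplanin-positive cells and discarded CD45-positive leukocytes. Tissue of origin is therefore the labelled difference between the groups, but marker sums of other cell types also differed between them, as given below. The labels do not give how many animals stand behind a library, so any p-value measures the spread between these libraries only. The genes were chosen by their known function together with their counts in these same libraries, above all the tissue difference of Duox2. Their differences between tissues are therefore given as a description without p-values, and no support is drawn from counts of calls among them.

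NADPH oxidases are membrane enzymes whose main product is reactive oxygen: they pass electrons from NADPH across a membrane to oxygen and make superoxide or hydrogen peroxide. Cybb, also called NOX2 or gp91phox, is the oxidase of phagocytes and needs cytosolic subunits to become active, whereas Nox4 is largely controlled by its amount and is well known from endothelium, fibroblasts and smooth muscle. Both rest on p22phox, the product of Cyba. The dual oxidases carry an added peroxidase-like domain and calcium-binding sites and release hydrogen peroxide. They need no p22phox, but they reach the cell surface only together with their maturation factors, and they are best known from the thyroid, where the peroxide serves hormone synthesis, and from mucosal epithelia.

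The dual oxidase genes form a single cluster on chromosome 2, in the order Duox2, Duoxa2, Duoxa1, Duox1, as head-to-head pairs on opposite strands. The start sites of Duox2 and Duoxa2 lie 673 bases apart. Promoter sequences of RefSeq (build GRCm38.p6, 250 bases before and 50 after the gene start) were found for all 7 genes. Those of Duox2 and of Duoxa2 are shown because Duox2 carried the main difference between tissues while the gene of its own maturation factor, across the same short interval, had far lower counts, and that of Nox4 because it was the next best detected oxidase. Capitals mark matches, on either strand, to the TATA box (TATAAA), the CCAAT box (CCAAT), the GC box (GGGCGG), an AP-1 site (TGANTCA), the core of the antioxidant response element (TGACNNNGC) and a STAT site (TTCNNNGAA).
Duox2, chr2:122298178-122298477, minus strand: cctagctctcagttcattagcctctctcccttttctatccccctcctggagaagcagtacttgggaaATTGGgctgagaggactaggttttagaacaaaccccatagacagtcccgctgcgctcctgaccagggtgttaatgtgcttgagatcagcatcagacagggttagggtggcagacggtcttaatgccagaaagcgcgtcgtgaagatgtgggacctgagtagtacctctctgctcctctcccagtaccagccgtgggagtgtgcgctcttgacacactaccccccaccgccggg
Duoxa2, chr2:122298650-122298949, plus strand: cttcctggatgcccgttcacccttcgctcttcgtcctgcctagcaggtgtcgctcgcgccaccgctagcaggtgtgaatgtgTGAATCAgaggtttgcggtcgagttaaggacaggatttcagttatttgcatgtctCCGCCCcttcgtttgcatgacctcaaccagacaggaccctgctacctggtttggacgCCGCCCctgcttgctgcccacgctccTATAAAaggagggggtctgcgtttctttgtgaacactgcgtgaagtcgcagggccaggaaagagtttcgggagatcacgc
Nox4, chr7:87246399-87246698, plus strand: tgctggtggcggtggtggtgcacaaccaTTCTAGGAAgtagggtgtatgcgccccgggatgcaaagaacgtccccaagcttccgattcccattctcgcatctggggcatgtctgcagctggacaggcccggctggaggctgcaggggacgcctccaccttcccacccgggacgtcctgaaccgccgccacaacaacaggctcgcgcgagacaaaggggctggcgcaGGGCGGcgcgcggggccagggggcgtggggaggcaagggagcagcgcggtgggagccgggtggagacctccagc
The Duox2 window held 1 match, a CCAAT box whose first base lay at -183 from the gene start. The Duoxa2 window held a TATA box at -30, an AP-1 match at -168 and 2 GC boxes, and the Nox4 window a GC box at -24 and a STAT match at -222. Among 32851 promoter windows of the same length, 13.6% held the TATA box, 37.4% the CCAAT box, 35.7% the GC box, 7.81% the AP-1 site, 12.4% the antioxidant response core and 8.30% the STAT site. These are matches of letters and not shown binding sites.

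Total counts per library ran from 26075366 to 34592850, and between 13241 and 17245 genes had at least 1 count. All 8 lymphatic endothelial markers examined, Prox1, Flt4, Lyve1 and Pdpn among them, had counts in every library. Ccl21a, also among the 8, had few reads, with 59, 39 and 58 in all over the libraries of meninges, diaphragm and skin. The summed level of the 8 markers was 6345 to 15133 CPM (the count scaled to a common library size) in meninges, 13809.5 to 19732 CPM in diaphragm and 19682 to 20454 CPM in skin. Fibroblast markers summed to 1631, 9403 and 9116 CPM in Meninges replicates 1 to 3, 694 to 1469.6 CPM in diaphragm and 151 to 1109.5 CPM in skin. Meninges replicate 2 thus had the lowest lymphatic and the highest fibroblast sum. Skeletal muscle markers summed to 17.2 to 36.9 CPM in meninges, 428 to 1123 CPM in diaphragm and 81.2 to 269 CPM in skin. In such sorted bulk samples, fewer cells of a type and less RNA per cell cannot be told apart.

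**Figure D1:**
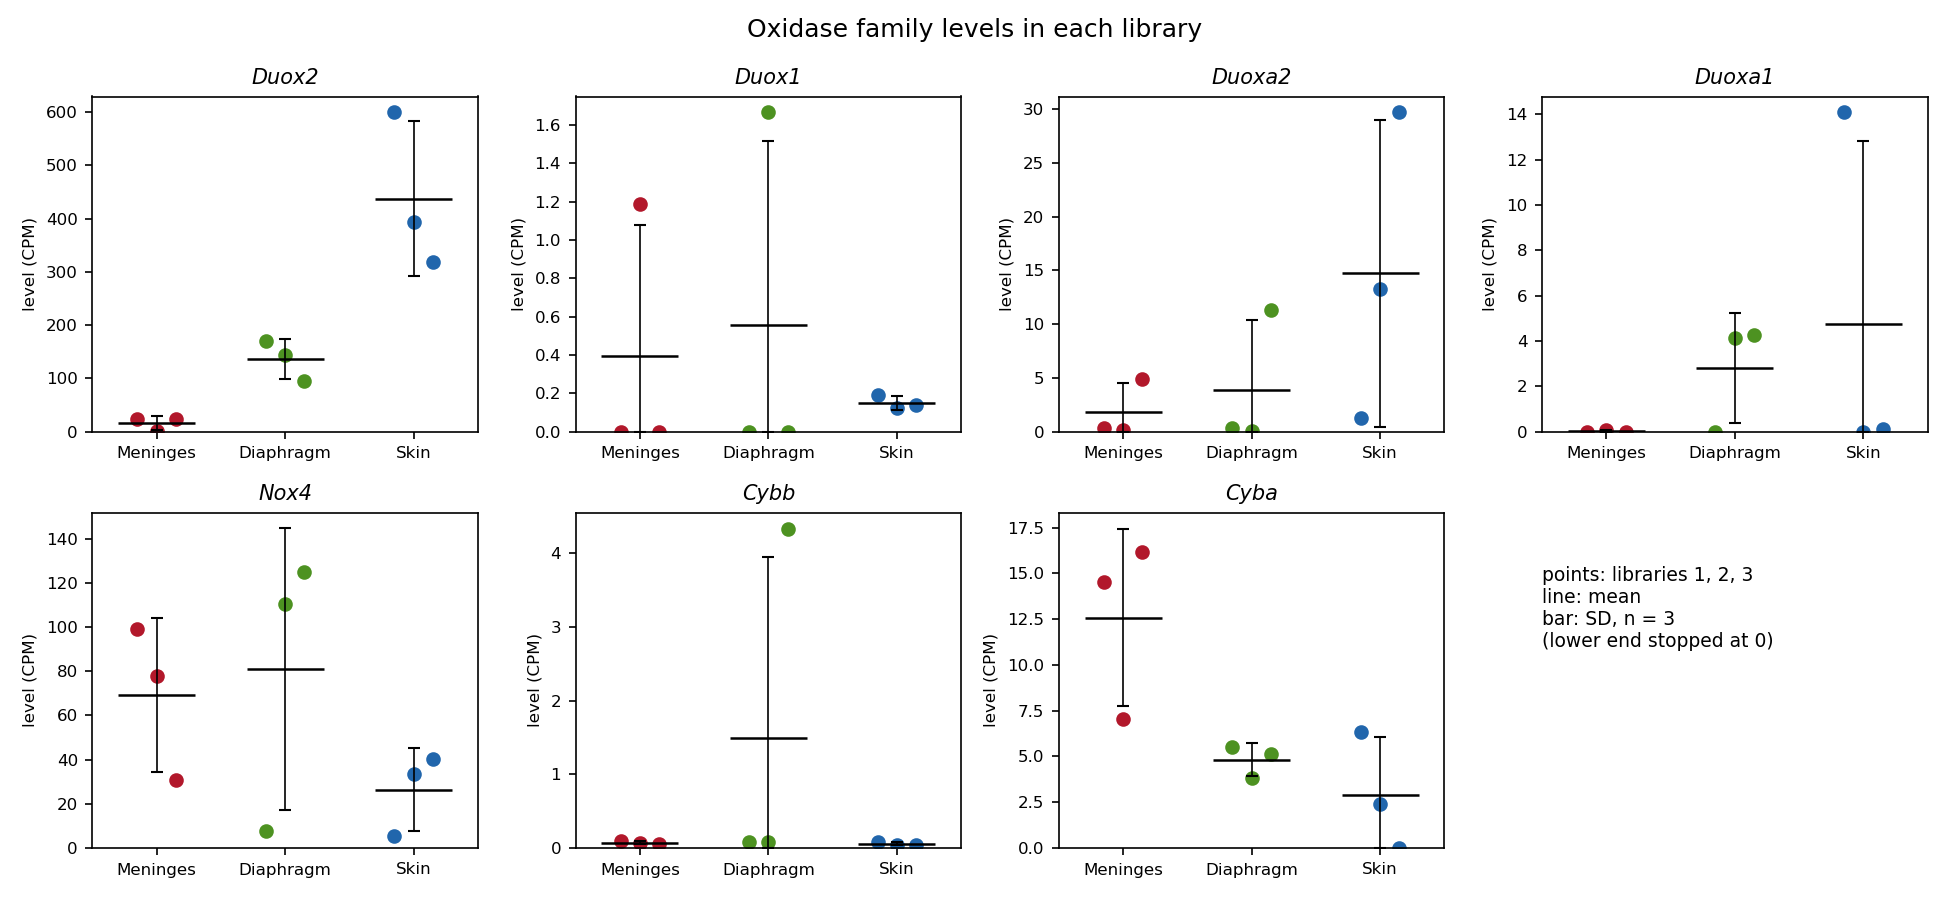
Level of each of the 7 oxidase genes in each library, in CPM on a linear axis that starts at 0, with the mean and SD of the 3 libraries per tissue. Duox2 separates the tissues without overlap, at 0.625 to 24.0 CPM in meninges, 95.7 to 170.3 CPM in diaphragm and 319 to 599 CPM in skin, while the other genes are low, or scattered within tissues.

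Duox2, which makes hydrogen peroxide at the cell surface, was the most highly counted gene of the family and formed a 3-step series over the tissues. Meninges replicates 1 to 3 gave 766, 20 and 898 reads, Diaphragm replicates 1 to 3 gave 4620, 3814 and 2673, and Skin replicates 1 to 3 gave 15488, 9691 and 6990. Scaled for library size, these were 24.0, 0.625 and 23.7 CPM in meninges, 170.3, 144 and 95.7 CPM in diaphragm and 599, 393 and 319 CPM in skin. No library of a tissue reached into the range of another tissue, and Meninges replicate 2 stood far below the other meningeal libraries. The means were 16.1 ± 13.4 CPM in meninges, 137 ± 37.8 CPM in diaphragm and 437 ± 145 CPM in skin (SD, n = 3 each). The fitted log2 fold change was -3.09 (standard error 0.86) for meninges over diaphragm, -4.76 (standard error 0.93) for meninges over skin and -1.68 (standard error 0.81) for diaphragm over skin. Without Meninges replicate 2 the values against diaphragm and skin were -2.52 and -4.20. The lymphatic marker sum was also lowest in Meninges replicate 2, at 6345 CPM against 15133 and 10958 CPM in Meninges replicates 1 and 3. It was 13809.5 to 19732 CPM in diaphragm and 19682 to 20454 CPM in skin. The part of lymphatic cell content in the Duox2 level was not tested.

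Dual oxidases are textbook enzymes of epithelium, so keratinocyte and skin epithelial markers are set beside them. Of 14 such markers in the table, the summed level was 7.07 to 111 CPM in meninges, 2.84 to 10.8 CPM in diaphragm and 0.0774 to 412 CPM in skin. Skin replicate 1, which had the highest Duox2 level of all libraries, had the lowest epithelial sum, with 12 of the 14 markers at 0, the keratins Krt5 and Krt14 included. Meninges replicate 2, the lowest for Duox2, had a sum of 111 CPM. In Skin replicate 1 Duox2 thus stood at 599 CPM beside an epithelial sum of 0.0774 CPM, and in Skin replicate 2 at 393 CPM beside one of 412 CPM. Mesothelial markers, a separate list, summed to 1239.5, 45.8 and 108 CPM in Diaphragm replicates 1 to 3. They summed to 0 to 25.2 CPM in meninges and 0 to 0.0387 CPM in skin. The part of epithelial or mesothelial cells in the Duox2 level was not tested in any library.

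Duox1, the other dual oxidase, was hardly detected in any tissue. Meninges replicates 1 to 3 gave 0, 38 and 0 reads, Diaphragm replicates 1 to 3 gave 0, 44 and 0, and Skin replicates 1 to 3 gave 5, 3 and 3. The tissues overlapped, and 1 library each of meninges and diaphragm held the reads of its tissue. In the GENCODE M21 transcripts, 6.05% of the 50-base stretches of Duox2 and 7.95% of those of Duox1 also occur in the other gene, so a small part of the reads could have been placed on either.

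The maturation factors, which carry the dual oxidases out of the endoplasmic reticulum, did not keep the Duox2 order library by library. Duoxa2 was at 0.313, 0.187 and 4.94 CPM in Meninges replicates 1 to 3, 0.369, 0.0379 and 11.4 CPM in Diaphragm replicates 1 to 3 and 1.24, 13.2 and 29.7 CPM in Skin replicates 1 to 3. Its means were 1.81 ± 2.71 CPM in meninges, 3.92 ± 6.44 CPM in diaphragm and 14.7 ± 14.3 CPM in skin (SD, n = 3 each). The order of the means was that of Duox2, but the ranges of all 3 tissues overlapped and a single library set the mean of meninges and of diaphragm. The log2 fold change was -1.11 (standard error 2.11) for meninges over diaphragm, which turned to 3.13 without Diaphragm replicate 3, and -3.02 (standard error 2.25) for meninges over skin. For diaphragm over skin it was -1.91 (standard error 2.16). Single libraries decided these sizes: meninges over skin was -5.85 without Meninges replicate 3, and diaphragm over skin was -6.15 without Diaphragm replicate 3 and -0.89 without Skin replicate 3.

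Duoxa1 reads came in isolated libraries. Meninges replicates 1 to 3 gave 0, 2 and 0 reads, Diaphragm replicates 1 to 3 gave 0, 109 and 119, and Skin replicates 1 to 3 gave 364, 0 and 3. Skin replicate 1, with the most Duoxa1, had little Duoxa2, and Skin replicate 3, with the most Duoxa2, had little Duoxa1. Diaphragm replicate 3 had reads of both. The exons of the 2 maturation factor genes share 682 bases on opposite strands in GENCODE M21, which is 42.8% of the exon length of Duoxa2 and 17.1% of that of Duoxa1. No source used here says whether reads were counted by strand, so reads of that stretch cannot be assigned with certainty.

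Nox4, which makes hydrogen peroxide without cytosolic subunits, was the best detected NADPH oxidase and did not follow the Duox2 order. It was at 99.0, 77.9 and 30.6 CPM in Meninges replicates 1 to 3, 7.85, 110.2 and 125 CPM in Diaphragm replicates 1 to 3 and 5.30, 33.6 and 40.4 CPM in Skin replicates 1 to 3. The tissues overlapped, with Diaphragm replicate 1 and Skin replicate 1 far below the other libraries of their tissues. Means were 69.2 ± 35.0 CPM in meninges, 81.0 ± 63.7 CPM in diaphragm and 26.4 ± 18.6 CPM in skin (SD, n = 3 each). The log2 fold change was -0.23 (standard error 0.92) for meninges over diaphragm, 1.39 (standard error 0.94) for meninges over skin and 1.62 (standard error 0.95) for diaphragm over skin. The first of these has no settled sign, since it was 0.13 without Meninges replicate 3, 0.04 without Diaphragm replicate 2 and 0.23 without Diaphragm replicate 3. Fibroblasts and mural cells are known to use Nox4. Mural markers summed to 547 to 1401 CPM in meninges, 343 to 557 CPM in diaphragm and 40.3 to 299 CPM in skin. Diaphragm replicate 1, low in Nox4, had the highest fibroblast and mural sums of its tissue, and Skin replicate 1 had the lowest fibroblast sum of all libraries. The part of these cells in the Nox4 level was not tested.

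Cybb, the phagocyte oxidase, was near the limit of detection in 8 of the 9 libraries. Meninges replicates 1 to 3 gave 3, 2 and 2 reads, Diaphragm replicates 1 to 3 gave 2, 2 and 121, and Skin replicates 1 to 3 gave 2, 1 and 1. Diaphragm replicate 3, at 4.33 CPM, was the exception, and the other libraries did not exceed 0.0939 CPM, where 3 reads correspond to 0.0793 to 0.137 CPM depending on the library. Leukocyte markers, 18 in the table, summed to 33.0 to 90.2 CPM in meninges, 39.9 to 132 CPM in diaphragm and 0.619 to 33.9 CPM in skin. Diaphragm replicate 3 had the lowest sum of its tissue, at 39.9 CPM, with 5 of the 18 markers at 0. Of these markers, chosen here after their values were seen, the myeloid lysozyme gene Lyz2 stood at 22.3 CPM in it and Ptprc, which encodes CD45, at 6.23 CPM, while the macrophage markers Cd68 and Csf1r stood at 0.0716 and 0.322 CPM. Diaphragm replicate 2, with Ptprc at 118 CPM, had 2 Cybb reads. The part of leukocytes in the Cybb reads was not tested.

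Cyba, the p22phox subunit that Nox4 and Cybb both need, was highest in meninges. It was at 14.5, 7.06 and 16.2 CPM in Meninges replicates 1 to 3, 5.53, 3.83 and 5.12 CPM in Diaphragm replicates 1 to 3 and 6.31, 2.40 and 0 CPM in Skin replicates 1 to 3, where the count of 0 allows up to 0.137 CPM. Every meningeal library stood above every library of diaphragm and skin, while diaphragm and skin overlapped. Means were 12.6 ± 4.86 CPM in meninges, 4.82 ± 0.889 CPM in diaphragm and 2.90 ± 3.18 CPM in skin (SD, n = 3 each). The log2 fold change was 1.38 (standard error 1.87) for meninges over diaphragm, 2.12 (standard error 1.91) for meninges over skin and 0.73 (standard error 1.84) for diaphragm over skin. Each of these differences was close to or below its standard error. Without Skin replicate 1 those over skin were 3.38 for meninges and 1.999 for diaphragm, without Skin replicate 3 they were 1.505 and 0.15, and with limma voom they were 3.58 and 2.17. Cyba is also abundant in leukocytes, whose summed marker level was 68.9, 33.0 and 90.2 CPM in Meninges replicates 1 to 3. It was 97.0, 132 and 39.9 CPM in Diaphragm replicates 1 to 3 and 0.619, 33.9 and 3.61 CPM in Skin replicates 1 to 3. Meninges and skin overlapped only through Meninges replicate 2 and Skin replicate 2. The part of leukocytes in the Cyba level was not tested.

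**Figure D2:**
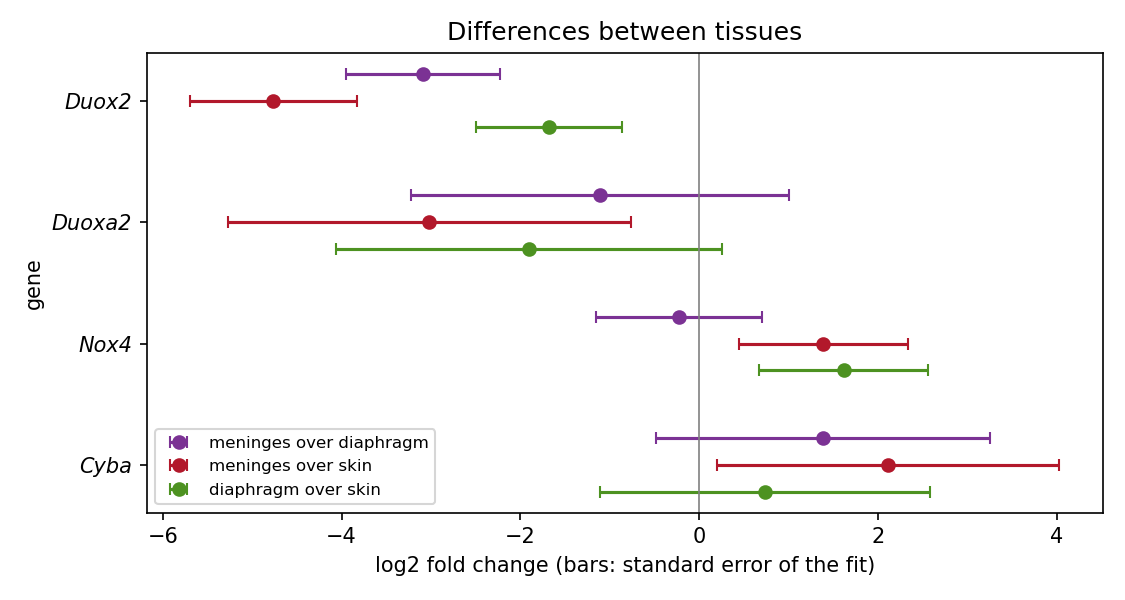
Log2 fold change of Duox2, Duoxa2, Nox4 and Cyba for 3 comparisons of tissues, with the standard error of the fit as bars. Duox2 lies at -3.09 and -4.76 for meninges over diaphragm and over skin, and the bars of Duoxa2 and Cyba span several units.

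Low-count filtering kept 5 of the 7 genes for the fit across all genes, Duox1 and Cybb being removed. Duoxa1 passed with 10 or more reads in 3 libraries, of diaphragm and skin. Of the 5, 1 was called lower in meninges than in skin, Duox2, by the edgeR quasi-likelihood test at an adjusted p under 0.05, beside 1.32% of all 14831 genes called in either direction, 0.748% higher and 0.573% lower. That count was 0 without Meninges replicate 3 and in a fit to meninges and skin alone, beside 74 and 158 of all genes. For meninges over diaphragm edgeR called 0 of the 5, beside 0.344% of all genes (0.169% higher, 0.175% lower). At an unadjusted p under 0.05 was 1, beside 1493 of all 14831 genes. DESeq2 and limma voom also called 0, beside 926 and 200 of all genes. Without the filter on low genes, Duox2 was called in that comparison too, beside 298 of all genes. For diaphragm over skin edgeR called 0 of the 5, beside 0.0405% of all genes (0.0337% higher, 0.00674% lower). At an unadjusted p under 0.05 were 0, beside 1749 of all genes. There DESeq2 and limma voom called 0, beside 1027 and 1 of all genes. Libraries of both tissues did not overlap for Cyba (higher) and Duox2 (lower) in meninges over diaphragm, beside 17.1% of all genes without overlap (10.4% higher, 6.7% lower). The same 2 genes did not overlap in meninges over skin, beside 20.2% of all genes (12.9% higher, 7.34% lower). In diaphragm over skin 1 gene, Duox2, did not overlap, beside 13.5% of all genes (7.54% higher, 5.95% lower). Nothing about the family or about Duox2 is read from these counts and calls, since Duox2 was known to differ when the genes were chosen.

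**Figure D3:**
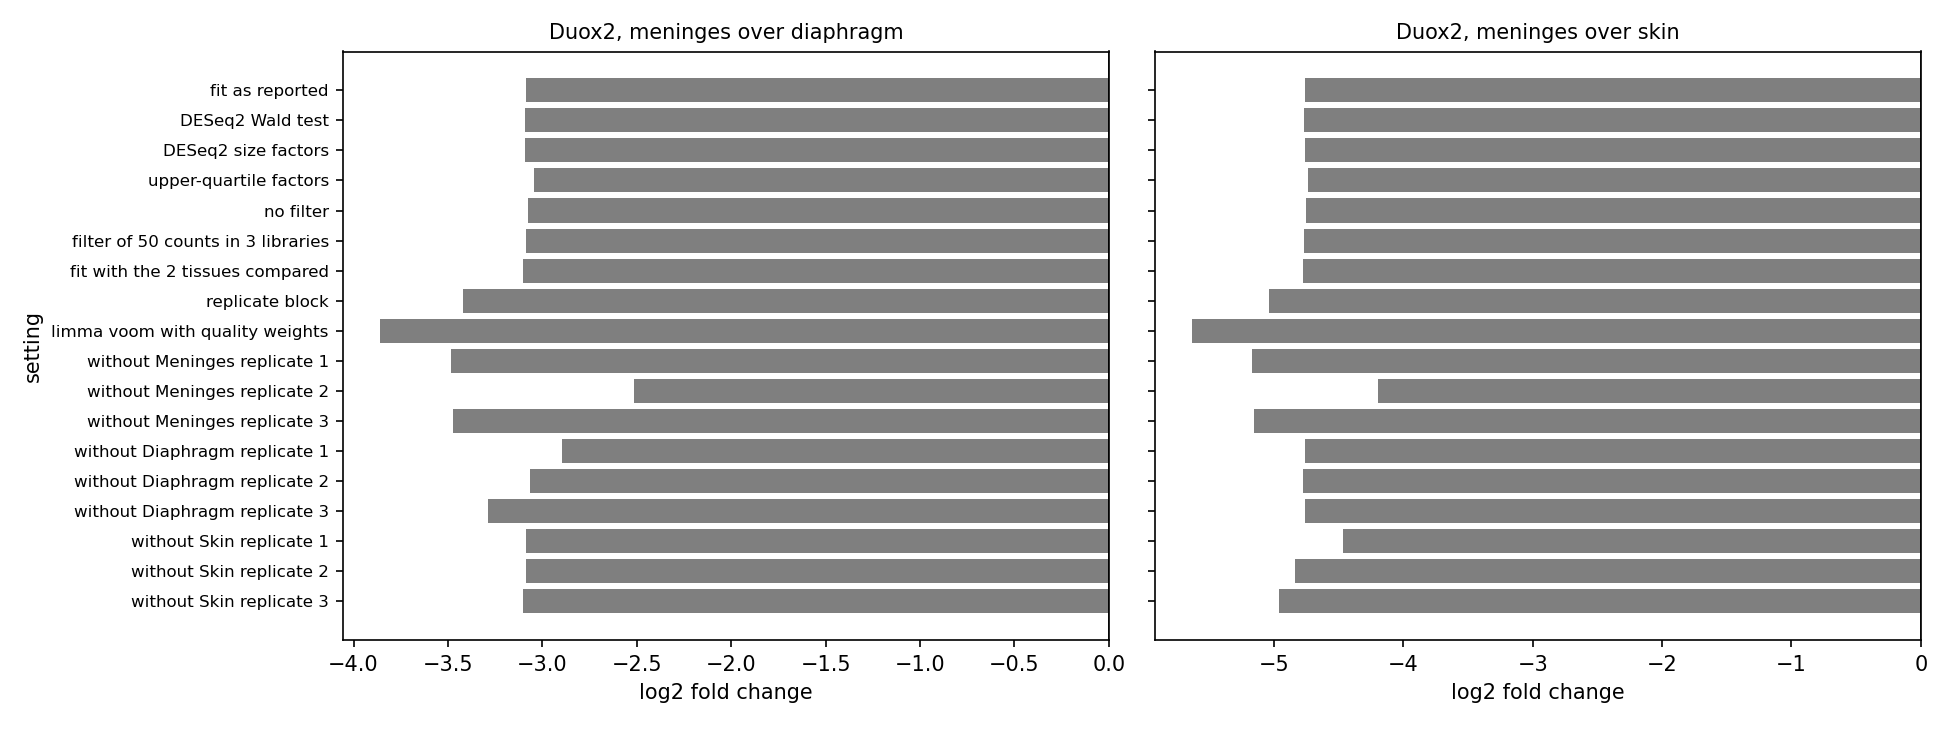
Fitted log2 fold change of Duox2 for meninges over diaphragm and meninges over skin under each setting tried. All bars are negative, and against skin they run from -5.64 with limma voom to -4.20 without Meninges replicate 2. Duox2 was chosen with its difference known, so no support is drawn from the shared sign.

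To compare the genes with each other, levels were divided by exon length (GENCODE M21, a newer build than that of the counts). Per kilobase, Duox2 reached 2.38 ± 1.98 CPM in meninges, 20.2 ± 5.59 CPM in diaphragm and 64.6 ± 21.4 CPM in skin. Cyba reached 12.1 ± 4.67, 4.64 ± 0.856 and 2.79 ± 3.06 CPM per kilobase in meninges, diaphragm and skin, and Nox4 reached 8.17 ± 4.13, 9.56 ± 7.53 and 3.12 ± 2.20 CPM per kilobase (SD, n = 3 each). The leading gene therefore changed with the tissue. Of the summed per-kilobase level of the 7 genes, Duox2 made up 12.0%, 0.561% and 13.6% in Meninges replicates 1 to 3, 79.5%, 54.1% and 33.1% in Diaphragm replicates 1 to 3, and in the 3 skin libraries it made up 88.9%, 79.9% and 66.8%. Cyba led in Meninges replicates 1 and 3, with 47.5% and 60.3%, and Nox4 led in Meninges replicate 2, with 55.9%. Nox4 was also narrowly ahead of Duox2 in Diaphragm replicate 3, at 34.5%.

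Per kilobase, Duoxa2 stood below Duox2 in every skin and diaphragm library but not in every meningeal one. In Meninges replicates 1 to 3 Duox2 stood at 3.54, 0.0923 and 3.51 CPM per kilobase and Duoxa2 at 0.197, 0.118 and 3.10, so that Duoxa2 was the higher in replicate 2 and close to Duox2 in replicate 3. In Skin replicates 1 to 3 Duox2 stood at 88.5, 58.1 and 47.2 CPM per kilobase and Duoxa2 at 0.778, 8.31 and 18.7. In Diaphragm replicates 1 to 3 Duox2 stood at 25.1, 21.3 and 14.1 CPM per kilobase and Duoxa2 at 0.231, 0.0238 and 7.13. In Diaphragm replicate 1 no Duoxa1 read was found either, against 4620 Duox2 reads in that library.

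**Figure D4:**
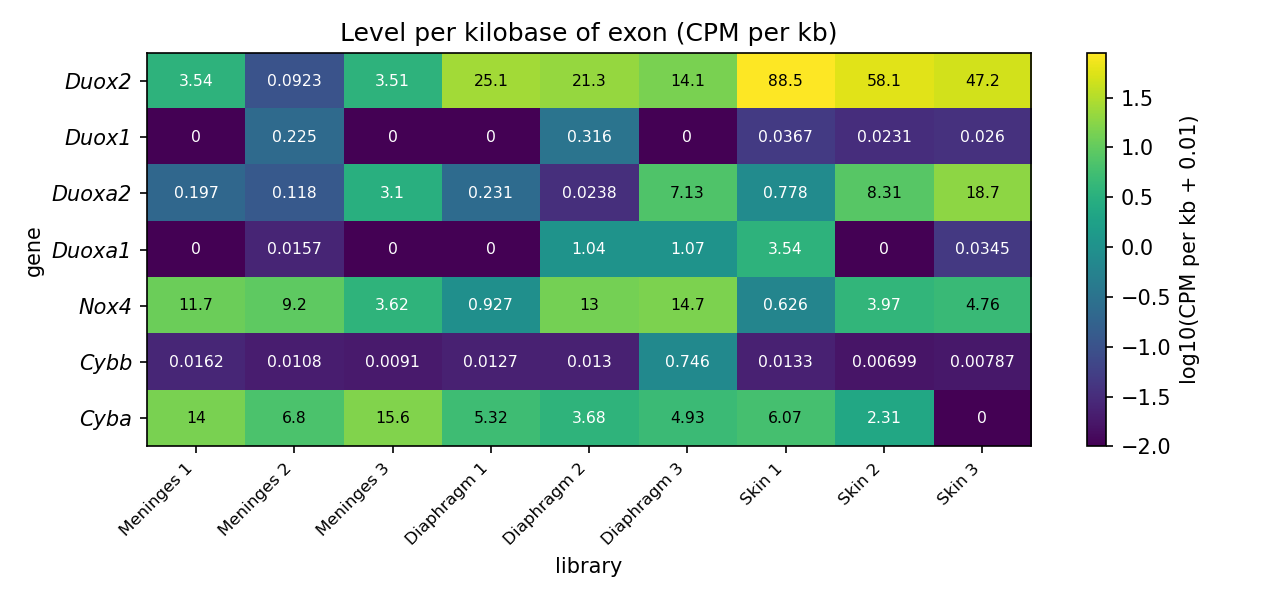
Level of each oxidase gene per kilobase of exon in each library, in CPM per kb, with colour on a log10 scale. Duox2 is the brightest row in the 3 skin libraries, at 47.2 to 88.5, whereas Cyba or Nox4 leads in the meningeal libraries.

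Genes whose level closely resembled that of Duox2 over the 9 libraries, by Pearson correlation of log2 CPM among 8725 genes of sufficient level, were Itga6 (0.98), Ppp1r2 (0.97), Syn3 (0.97) and Apold1 (0.97). Itga6, a laminin-binding integrin chain, averaged 112 ± 55.9 CPM in meninges, 300.6 ± 60.4 CPM in diaphragm and 372 ± 54.0 CPM in skin (SD, n = 3 each). Apold1, an endothelial early response gene, averaged 44.6 ± 41.1, 174 ± 54.3 and 356 ± 31.0 CPM in meninges, diaphragm and skin. Like Duox2, each of these had its lowest level in Meninges replicate 2. The genes closest to Nox4 were Sh3bgrl (0.95), Ube2w (0.95) and Srp9 (0.94). The 9 libraries come from 3 tissues and differ in marker sums of other cells, so such coefficients only describe likeness.

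Among the oxidase family's own genes the coefficients with Duox2 over the same 9 libraries were 0.41 for Duoxa2, 0.37 for Duoxa1, -0.46 for Nox4 and -0.41 for Cyba. Of the genes next to the cluster on chromosome 2, Sord and Slc28a2 passed the low-count filter, and neither had its highest mean in skin. Sord, the sorbitol dehydrogenase gene beside Duox2, averaged 21.5 ± 5.60 CPM in meninges, 55.9 ± 33.9 CPM in diaphragm and 43.2 ± 37.2 CPM in skin, and it was not called in any comparison (edgeR adjusted p = 0.662 for meninges over diaphragm and 0.701 for meninges over skin). On the Duox1 side, Slc28a2, a nucleoside transporter gene, averaged 1.46 ± 2.53, 36.7 ± 44.1 and 0.335 ± 0.581 CPM in meninges, diaphragm and skin.

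The surrounding pathway was followed in 7 lists of genes, of which 75 non-member genes passed the low-count filter. The lists, too, were chosen with earlier results of these data known. Calls, p-values and their stability among list genes are therefore given as a description. In meninges over skin edgeR called 3 of these higher and 0 lower, beside 0.748% of all 14831 genes called higher and 0.573% lower, while limma voom called 5 of 75 (414 of all genes) and DESeq2 16 of 75 (1447 of all genes). At an unadjusted p under 0.05 were 11 of 75, beside 2052 of all genes. The median log2 fold change of the 75 was 0.49, against 0.08 over all genes. For meninges over diaphragm edgeR called 0 of 75, with 7 at an unadjusted p under 0.05, beside 1493 of all genes. There limma voom called 1 of 75 (200 of all genes) and DESeq2 9 of 75 (926 of all genes). For diaphragm over skin edgeR called 0 of 75, with 10 at an unadjusted p under 0.05, beside 1749 of all genes. There limma voom called 0 of 75 (1 of all genes) and DESeq2 11 of 75 (1027 of all genes).

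Of the partners of the NADPH oxidases, 12 were in the table and 8 were tested, with none called by edgeR in any comparison and median log2 fold changes of 0.53 for meninges over diaphragm and 0.51 for meninges over skin, against 0.05 and 0.08 over all genes. Rac1, the small GTPase that serves NOX1 and NOX2, was abundant everywhere, at 502 ± 69.3 CPM in meninges, 659 ± 135 CPM in diaphragm and 611 ± 72.6 CPM in skin (SD, n = 3 each). The adaptor gene Sh3pxd2a was higher in every meningeal library (163 to 283 CPM) than in any diaphragm (21.1 to 74.9 CPM) or skin library (20.3 to 64.1 CPM), but it missed the threshold (edgeR adjusted p = 0.245 and 0.0802). Noxo1 and Nox1 had 2 reads each over all libraries.

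Nox3, an oxidase known from the inner ear, was singled out after its values were seen. It was at 1.47, 35.2 and 21.6 CPM in Meninges replicates 1 to 3, and no diaphragm or skin library had a read of it. With reads pooled over the meningeal libraries, Nox3 was at least 531-fold higher in meninges than in diaphragm, against a floor of 3 reads over the tissue. Over skin it was at least 471-fold higher in the same way. Such bounds cover counting error only and not the spread between libraries, so a single meningeal library can lie below them. Nox3 was not called (edgeR adjusted p = 0.228 and 0.123). Slc26a4, the anion exchanger pendrin of thyroid and inner ear, had a similar distribution, with 0.470, 88.0 and 37.5 CPM in Meninges replicates 1 to 3 and no read elsewhere, and was not called either (edgeR adjusted p = 0.136 and 0.0687). Both were highest in Meninges replicates 2 and 3. The fibroblast sums and the epithelial sums (111 and 56.1 CPM, against 7.07 CPM in replicate 1) were also higher there than in Meninges replicate 1. Of the 14 epithelial markers, 9, 7 and 8 had no count in Meninges replicates 1 to 3. The part of these cells was not tested. Of 9 thyroid hormone synthesis genes listed, 4 were in the table and only Slc26a4 passed the filter. Pax8, a transcription factor gene of thyroid and kidney, was at 0, 0.969 and 2.06 CPM in Meninges replicates 1 to 3. It had no read elsewhere. With reads pooled as above, Pax8 was at least 29.1-fold higher in meninges than in diaphragm and at least 25.8-fold higher than in skin. Meninges replicate 1, without a read, does not meet these bounds by itself. The iodide transporter gene Slc5a5 stayed at or below 1.59 CPM and the thyrotropin receptor gene Tshr was found in Skin replicate 1 only, at 2.40 CPM.

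Among genes that remove superoxide and peroxide, 27 were tested. In meninges over skin edgeR called 2 higher and 0 lower, and no call was made in the other comparisons. The median log2 fold change of the list for meninges over skin was 0.74, against 0.08 over all genes. Gpx3, the secreted glutathione peroxidase, was at 432, 3301 and 3121 CPM in Meninges replicates 1 to 3, 564, 367 and 313 CPM in Diaphragm replicates 1 to 3 and 89.9, 82.3 and 61.5 CPM in Skin replicates 1 to 3. Every meningeal library exceeded every skin library, whereas meninges and diaphragm overlapped. The log2 fold change for meninges over skin was 4.87 (standard error 0.62, edgeR adjusted p = 0.0022), and the call held whichever library was removed, in 9 of 9 fits, but not with limma voom (adjusted p = 0.292). Gpx3 was highest in the 2 meningeal libraries with the highest fibroblast sums, and the part of fibroblasts was not tested.

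Gpx8, a peroxidase of the endoplasmic reticulum, was at 2.22, 28.7 and 23.7 CPM in Meninges replicates 1 to 3, 5.90, 20.1 and 11.0 CPM in Diaphragm replicates 1 to 3 and without a read in skin. With reads pooled over the meningeal libraries, it was at least 447-fold higher in meninges than in skin, against the floor of 3 reads over the tissue. This bound covers counting error only. Gpx8 was called higher in meninges than in skin (edgeR adjusted p = 0.0412). That call held only without Meninges replicate 1 or Diaphragm replicate 1 and ended without any other 1 library (edgeR adjusted p = 0.0371 to 0.14 over the 9 fits). It also ended with the replicate block (adjusted p = 0.0733) and in the fit to meninges and skin alone (adjusted p = 0.0890). The call held with DESeq2 (adjusted p = 3.7e-09), limma voom (adjusted p = 0.0232), both other scalings, no filter and the stricter filter. In meninges Gpx8 was lowest in replicate 1, which had the lowest fibroblast sum there. In diaphragm it was lowest in replicate 1, which had the highest fibroblast sum there. The part of fibroblasts was not tested. Cat, the catalase gene, averaged 276 ± 84.2 CPM in meninges, 147 ± 28.7 CPM in diaphragm and 190.0 ± 185 CPM in skin and was not called (edgeR adjusted p = 0.706 and 0.797 for meninges against diaphragm and skin).

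The third called gene was Aqp1, a water channel of blood endothelium for which conduction of hydrogen peroxide has been described. It averaged 822 ± 328 CPM in meninges, 450.3 ± 126 CPM in diaphragm and 68.1 ± 36.2 CPM in skin, with a log2 fold change of 3.59 for meninges over skin (standard error 0.48, edgeR adjusted p = 0.00257), and the call held in 9 of 9 fits with a library removed. The blood endothelial marker list, to which Aqp1 itself belongs, summed to 1082 to 2683 CPM in meninges, 756 to 1654 CPM in diaphragm and 403 to 579 CPM in skin, and its part was not tested. Pxdn, a matrix peroxidase, averaged 99.9 ± 9.46, 107 ± 37.8 and 71.2 ± 9.44 CPM in meninges, diaphragm and skin and was not called.

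None of the 13 tested genes of the NRF2 pathway, the antioxidant transcriptional response, was called by edgeR in any comparison. Their median log2 fold change was -0.06 for meninges over diaphragm, -0.14 for meninges over skin and -1.08 for diaphragm over skin, against 0.05, 0.08 and 0.01 over all genes. Nfe2l2, which encodes NRF2, averaged 215 ± 92.7 CPM in meninges, 291 ± 8.69 CPM in diaphragm and 141 ± 19.2 CPM in skin. Of 12 genes that supply NADPH, edgeR called none in any comparison, with medians of 0.39 for meninges over diaphragm and 0.35 for meninges over skin, and Nadk, the NAD kinase gene, averaged 34.2 ± 20.0, 53.2 ± 7.19 and 31.0 ± 27.5 CPM in meninges, diaphragm and skin. Of 14 genes of other enzymes that form oxidants, edgeR called none in any comparison. The best detected, the xanthine dehydrogenase gene Xdh, averaged 137 ± 26.3 CPM in meninges, 168 ± 58.5 CPM in diaphragm and 133 ± 40.6 CPM in skin.

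**Figure D5:**
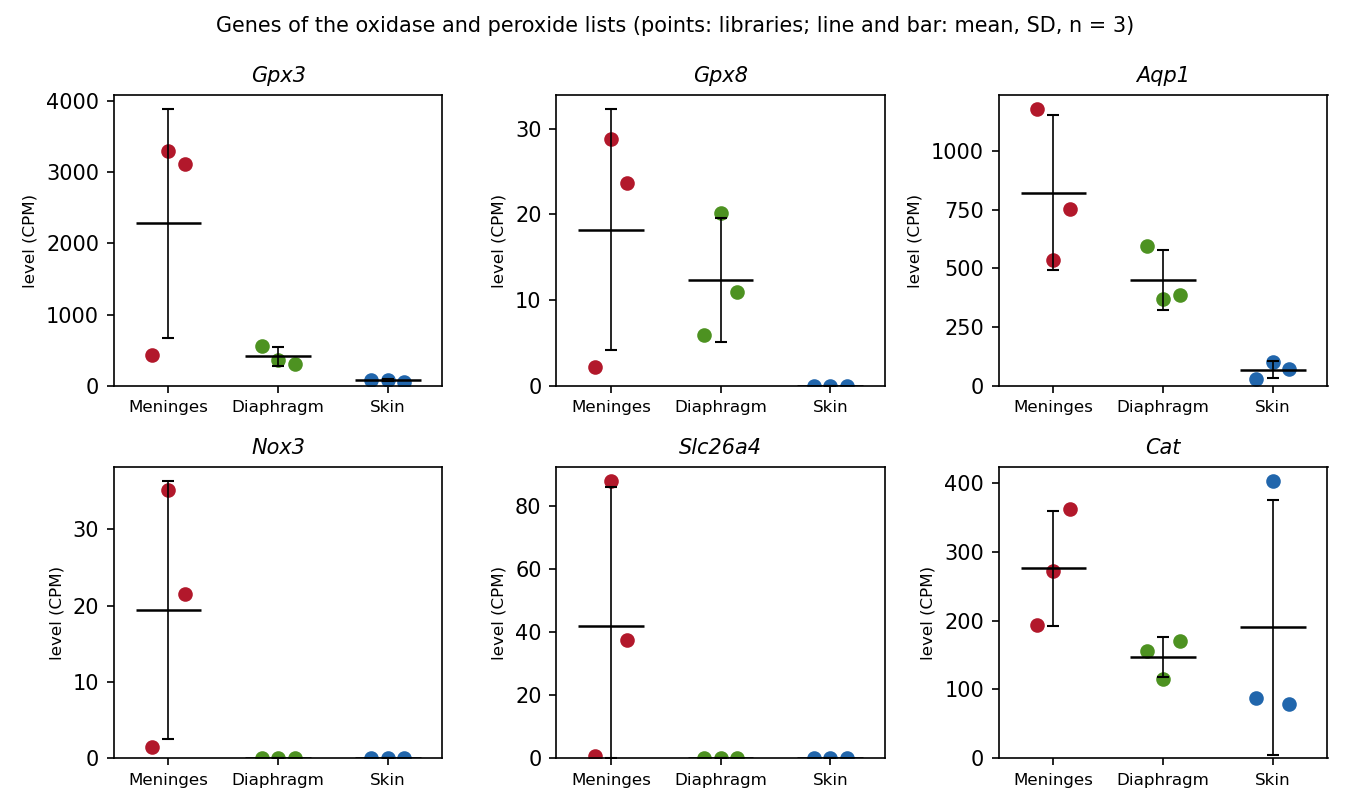
Levels in each library, in CPM on linear axes that start at 0, of 6 genes around the oxidases, with the mean and SD of the 3 libraries per tissue. Gpx3 and Aqp1 are high in meninges and low in skin, and Nox3 and Slc26a4 have reads in the meningeal libraries only.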

How the data were processed

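Reads had been counted per Ensembl gene by the submitters, and those deposited raw counts are the values used. The submitters' processing notes name FastQC, STAR, HTSeq and the mouse build mm9. Versions, annotation, strand setting and how reads with more than 1 match were treated are not stated there. Per the labels' protocols, RNA was extracted with a PicoPure kit and amplified with the Ovation RNA-Seq System V2. Genes without a symbol were named from their Ensembl identifier.

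The test was that of edgeR 4.0.16 (R 4.3.3, filterByExpr, which kept 14831 genes, TMM scaling, glmQLFit and glmQLFTest, 1 mean per tissue, all 9 libraries, Benjamini-Hochberg adjustment over all genes, called under 0.05). CPM are counts scaled by the TMM-adjusted library size. Standard errors are the log2 fold change divided by the square root of the F statistic. The biological coefficient of variation was 1.24. Replicates differed by more than counting noise, with chi-square over degrees of freedom of 308 to 507. Bounds use a floor of 3 reads over the tissue's libraries and cover counting error only. Alternatives were the Wald test of DESeq2 1.42.0, its size factors or upper-quartile factors in edgeR, all genes kept, genes kept at 50 counts in 3 libraries, a fit to the 2 tissues compared, the replicate number as a block, limma 3.58.1 voom with quality weights and the removal of each library. The edgeR test, but none of the alternatives, was also run on simulated counts for the comparisons with meninges, with an outcome that is not reported here. Figures were drawn with matplotlib 3.10.9.

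The members and the lists were chosen with earlier results of these data known. Named from each list were up to 4 called genes or, with fewer than 2, also the 2 with the highest level, together with the 5 genes most like a member by correlation (average log2 CPM of at least 3) and the neighbours of the Duox cluster. Not all are printed, and some genes are not reported here. Groups of 3 libraries were not examined for outlying samples.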

Additional observations from a re-analysis of the deposited data

How the results depend on the processing

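Duox2 was chosen with its tissue difference known, and its libraries did not overlap between tissues. An unchanged sign was therefore to be foreseen and gives no support. The sign of the Duox2 differences was the same under all 8 alternative settings and all 9 fits that left out 1 library. Left-out libraries moved its log2 fold change between -3.49 and -2.52 for meninges over diaphragm, between -5.17 and -4.20 for meninges over skin and between -1.87 and -1.38 for diaphragm over skin. Members called in meninges over skin were 0 in the fit with the 2 tissues compared and 0 to 1 when a library was left out, and in meninges over diaphragm 1 without a filter. Signs changed for genes that were not called. Duoxa1 in diaphragm over skin was 1.23 with the replicate block, 2.01 with limma voom and 5.27 without Skin replicate 1 (-1.35 to 5.27 over the left-out libraries). Duoxa2 in meninges over diaphragm was 0.28 with limma voom and 3.13 without Diaphragm replicate 3 (-3.95 to 3.13), and Nox4 there was 0.65 with the replicate block and -0.77 to 0.23 with a library left out. The cause was not tested.

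All genes called in meninges over diaphragm numbered 51, against 926 with DESeq2, 298 without a filter, 108 in the fit with the 2 tissues, 200 with limma voom and 19 to 105 with a library left out. In meninges over skin they were 196, against 1447 with DESeq2, 610 without a filter, 414 with limma voom and 74 to 236 with a library left out. In diaphragm over skin they were 6, against 1027 with DESeq2, 305 without a filter, 13 with the filter of 50 counts in 3 libraries, 1 in the fit with the 2 tissues, 16 with the replicate block, 1 with limma voom and 2 to 58 with a library left out. Pathway list genes called in meninges over skin were 3, against 16 with DESeq2, 7 without a filter, 5 with limma voom and 2 to 5 with a library left out. In meninges over diaphragm they were 0, against 9, 3, 1 and 0 to 2 in the same order, and in diaphragm over skin 0, against 11 with DESeq2, 4 without a filter, 1 with the filter of 50 counts and 0 to 2 with a library left out.

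No pairing of the libraries by replicate number was seen, which cannot exclude one, since the labels do not give the animals behind a library. Deviations from the tissue means correlated between -0.02 and 0.05 for same-numbered libraries, and 3 of 9 libraries correlated best with their own number. With the numbers as a block, genes called were 70 in meninges over diaphragm and 231 in meninges over skin. Duox1 and Cybb had 5 reads or fewer in most libraries, which is too few for a comparison.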
